A study of Rattus norvegicus with 6 samples.

Results

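Injury-associated phagocyte genes are genes that microglia and macrophages switch on when they take up dead cells, myelin and lipid. The 10 described here are Gpnmb, Spp1, Itgax, Lgals3, Cst7, Axl, Tyrobp, Cd68, Msr1 and Cd63. Each was found by its symbol among the 19382 genes of a count table from rat brain. In brains after hypoxia-ischemia (HI) the 9 of them with enough reads to compare stood above control brains, by 2.93-fold for Axl, a receptor for apoptotic cells and the lowest of the 9, and by 51.7-fold for the galectin gene Lgals3. Itgax, an integrin of activated microglia, had the highest fold of the 9, with 244 reads in HI against 2 in controls. Gpnmb, a membrane glycoprotein of lipid-laden phagocytes, averaged 181 ± 78.4 CPM (counts scaled to library size) in HI and 11.2 ± 2.93 CPM in controls (SD, n = 3 each). Relative to a list of general microglia and macrophage markers, Lgals3, Gpnmb, Msr1, Itgax and Spp1 went beyond the increase of that list in every HI library, Spp1 with overlap between HI and control libraries, while Tyrobp, Cd68, Cd63 and Axl moved about as much as the list did. The genes were chosen with the difference between HI and control already known, so their levels and fold changes in this contrast are a description and carry no test.

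Microglia sense cell debris through receptors such as TREM2, whose signal passes into the cell through the adaptor encoded by Tyrobp, and in mice this signal turns on a set of genes for lipid handling, lysosomes and adhesion. In mouse models of neurodegeneration and injury, Gpnmb, Spp1, Itgax, Lgals3, Cst7 and Axl are among the genes of that state. In mice several of the same genes are also active in the first postnatal week in microglia of the developing white matter. Cd63 and Axl are further expressed by astrocytes and vascular cells, and Spp1 by some neurons, which bulk tissue does not separate from phagocytes.

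Total RNA of brain tissue was sequenced in 6 libraries. The 3 HI libraries came from rats of the SD strain that underwent 2.5 h of ischemia with hypoxia when 7 days old, and the 3 control libraries from rats given control treatment. Neither the brain region nor the interval before sampling, the sex, or the age of the controls is stated in the sources used here, and all libraries share the TRIzol extraction and the SMARTER mRNA kit. Libraries held 14324303 to 14927469 estimated reads in HI and 13922663 to 14692505 in controls. Nothing says that each library is a separate animal, so the p-values rest on a spread between samples that may be partly technical. Levels are CPM scaled by the trimmed mean of M-values (TMM), which corrects for library composition. The limit of 3 reads that a count of 0 allows corresponds to 0.182 to 0.201 CPM in HI and 0.221 to 0.227 CPM in controls.

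Libraries also differed in the levels of tissue markers. Choroid plexus markers summed to 226, 8496 and 15870 CPM in HI 1, 2 and 3, against 30.7, 2336 and 33.8 CPM in controls 1, 2 and 3, and markers of the dorsal telencephalon to 252 to 313 CPM in HI against 571 to 1137 CPM in controls. HI 1 therefore held fewer choroid plexus reads than control 2. For the lower dorsal telencephalon sums in HI, the tissue sampled and the injury cannot be told apart, and neither was tested. Y-linked genes reached at least 1 CPM in HI 2, HI 3 and control 3 (109.2, 106.8 and 102.5 CPM). They stayed below it in HI 1, control 1 and control 2 (0.067, 0.231 and 0.225 CPM). The libraries of a group were therefore not all from the same animals, though any 2 of them may still share some.

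Promoter sequence was not used to choose the genes. RefSeq windows of the assembly GRCr8, from 250 bases before to 50 bases after the annotated start, were found for 7 of the 10 genes, that is all but Lgals3, Tyrobp and Msr1. The AP-1 motif TGANTCA, where N is any base, was present on either strand in 5 of these 7 windows, against 7.33% of 33469 rat promoter windows of the same length. It occurred in 4 of 22 genes of a list of other injury-associated phagocyte genes, in 0 of 8 pan-microglia and macrophage genes and in 0 of 9 resting microglia genes with a window. Lists of other cells with a window also held it, in 2 of 12 reactive astrocyte genes, 1 of 4 fibroblast and meningeal genes, and 1 of 5 genes each of the endothelial, choroid plexus and dorsal telencephalon lists. The 4 windows below belong to compared genes that hold it, and capitals mark every match to the motifs searched.
Gpnmb promoter (chr4:79340878-79341177, plus strand): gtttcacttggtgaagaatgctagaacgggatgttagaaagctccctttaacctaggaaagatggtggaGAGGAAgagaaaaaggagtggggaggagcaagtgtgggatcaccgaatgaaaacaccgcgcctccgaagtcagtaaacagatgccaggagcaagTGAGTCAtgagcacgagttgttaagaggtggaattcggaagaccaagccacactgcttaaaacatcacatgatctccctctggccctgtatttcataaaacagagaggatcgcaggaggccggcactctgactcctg
Itgax promoter (chr1:192149799-192150098, plus strand): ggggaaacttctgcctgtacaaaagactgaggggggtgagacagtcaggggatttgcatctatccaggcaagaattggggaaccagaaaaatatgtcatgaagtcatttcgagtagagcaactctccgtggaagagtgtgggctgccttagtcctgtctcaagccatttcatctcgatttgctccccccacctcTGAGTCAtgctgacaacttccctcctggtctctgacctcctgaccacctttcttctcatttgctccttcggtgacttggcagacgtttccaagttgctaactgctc
Cd68 promoter (chr10:54882392-54882691, minus strand): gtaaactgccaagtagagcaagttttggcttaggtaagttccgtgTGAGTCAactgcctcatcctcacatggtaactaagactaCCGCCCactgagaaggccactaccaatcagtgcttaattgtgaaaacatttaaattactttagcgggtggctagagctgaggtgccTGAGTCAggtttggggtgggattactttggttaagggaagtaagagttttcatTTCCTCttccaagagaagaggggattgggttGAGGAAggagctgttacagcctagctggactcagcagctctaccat
Cd63 promoter (chr7:1921894-1922193, plus strand): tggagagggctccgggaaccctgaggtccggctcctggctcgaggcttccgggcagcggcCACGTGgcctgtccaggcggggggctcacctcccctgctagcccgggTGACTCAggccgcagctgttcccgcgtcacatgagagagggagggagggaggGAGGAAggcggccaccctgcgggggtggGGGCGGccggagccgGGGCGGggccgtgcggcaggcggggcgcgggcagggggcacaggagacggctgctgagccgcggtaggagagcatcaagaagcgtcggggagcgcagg

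In Gpnmb the AP-1 match began at position -87 from the start, in Itgax at -56, in Cd68 at -205 and at -80, and in Cd63 at -143. Cst7 held TGATTCA beginning at position 23, after the start. The core of PU.1 sites, GAGGAA, was found in Gpnmb, Axl, Cd68 and Cd63, or 4 of 7 windows against 27.6% of all windows. The E-box CACGTG, which the lysosomal regulators MITF and TFEB can bind, was found in Cd63 alone among the 7, against 6.42% of all windows. The SP1 motif GGGCGG occurred in 3 of 7 against 33.1%. The TATA box letters TATAAA occurred in 1 of 7 against 14.2%, in Spp1, and there began as far from the start as position -204. The interferon-type motif (ISRE-like) and the STAT motif TTCNNNGAA occurred in 0 of 7, against 3.92% and 8.87%. Both strands were searched and no match overlapped that of another motif. A match is a string of letters and not a measured binding site. The windows held between 46.7% (Cd68) and 75.0% (Cd63) G and C, with a median of 51.7% over all windows.

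Of the 10 genes 9 passed the filter on low counts, and in each of the 9 every HI library lay above every control library, as it did in 21.5% of the 14959 genes tested. Adjusted p-values below 0.05 were given to 7 of the 9 as higher in HI, against 6.83% of all tested genes, and to 0 of the 9 as lower, against 7.04%, by edgeR's quasi-likelihood test with Benjamini-Hochberg adjustment. Spp1 and Cd68 were the others. As these genes were chosen on this contrast, nothing is read from either count. Itgax and Msr1 had fewer than 10 reads in each control and entered through their HI reads. The median log2 fold change of the 9 genes was 3.43, the value of Spp1, with 0.04 as the median of all tested genes. In bulk tissue a change in the number of cells that express a gene and a change in RNA per cell cannot be told apart.

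**Figure D1:**
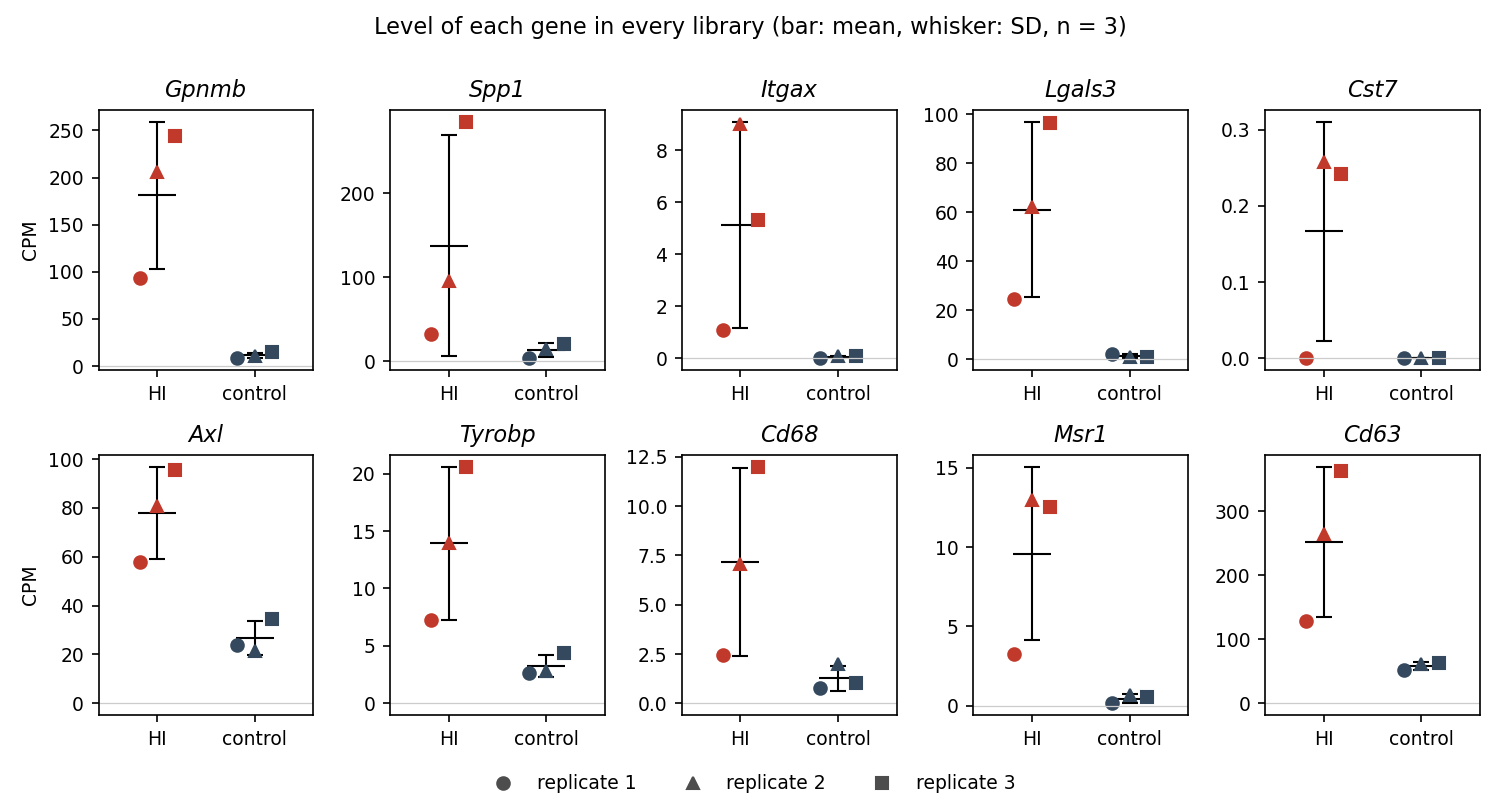
Level in CPM (vertical axis, from 0, a scale per gene) of the 10 injury-associated phagocyte genes in the 3 HI and 3 control libraries, with symbols for replicates, a bar for the mean and whiskers for the SD (n = 3). HI libraries lie above all controls in each gene except Cst7, and HI 1 is the lowest HI library in every panel.

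Secreted proteins come first by role. Spp1 encodes osteopontin, a matrix and cytokine-like protein that binds integrins and CD44. It stood at 32.3, 94.9 and 285 CPM in HI 1, 2 and 3, against 3.56, 14.7 and 19.9 CPM in controls 1, 2 and 3. The groups did not overlap, but HI 1 was only 1.62-fold above the highest control, and the controls themselves spanned 5.60-fold. Its log2 fold change of 3.43 ± 0.94 (SE) thus had a wide error, and its HI libraries spread more than those of any other of the 9 genes, HI 3 lying 8.83-fold above HI 1.

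Lgals3 encodes galectin-3, a sugar-binding protein that is released from phagocytes and gathers at damaged lysosomes. Its level was 24.5, 62.3 and 96.3 CPM in HI 1, 2 and 3, against 2.12, 0.736 and 0.674 CPM in controls 1, 2 and 3. Even HI 1 was 11.6-fold above the highest control. Controls held 28, 10 and 9 reads. The log2 fold change was 5.69 ± 0.69 (SE), the 6th highest of all genes tested.

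Cst7 encodes cystatin F, an inhibitor of lysosomal cysteine proteases. It had 0, 4 and 4 reads in HI 1, 2 and 3 and 0 reads in each control, and it did not pass the filter. Its 8 HI reads lie near the limit of detection, and a difference was not tested.

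Cell surface proteins follow. Itgax encodes the alpha subunit CD11c, which pairs with the beta subunit encoded by Itgb2. It had 16, 140 and 88 reads in HI 1, 2 and 3 (1.07, 9.0 and 5.33 CPM), against 0, 1 and 1 reads in controls 1, 2 and 3. HI 2 was its highest library. The ratio of summed reads per depth, 244 against 2, was 104, with an exact 95% interval of 28.5 to 865 that covers counting error only.

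Msr1 encodes scavenger receptor A, which takes up modified lipoproteins and debris. It stood at 3.28, 13 and 12.5 CPM in HI 1, 2 and 3, against 0.152, 0.663 and 0.524 CPM in controls 1, 2 and 3. HI 2 and HI 3 were nearly equal and HI 1 was well below them, yet still 4.95-fold above the highest control. Its log2 fold change was 4.40 ± 0.72 (SE), with at most 9 reads in a control.

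Axl encodes a receptor tyrosine kinase that recognises apoptotic cells through bridging ligands. It stood at 57.9, 80.6 and 95.4 CPM in HI 1, 2 and 3, against 23.9, 21.4 and 34.5 CPM in controls 1, 2 and 3. Among the 9 genes it had the smallest log2 fold change, 1.55 ± 0.25 (SE), and the smallest spread in HI (coefficient of variation 24.2%).

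Tyrobp, the signalling adaptor of TREM2 and related receptors, stood at 7.29, 13.9 and 20.6 CPM in HI 1, 2 and 3, against 2.65, 2.80 and 4.34 CPM in controls 1, 2 and 3. Its log2 fold change was 2.09 ± 0.43 (SE). The highest control, control 3, was 1.64-fold above the lowest control.

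Lysosomal and endosomal membrane proteins complete the set. Gpnmb stood at 93.4, 206 and 244 CPM in HI 1, 2 and 3, against 8.71, 10.6 and 14.4 CPM in controls 1, 2 and 3. The gap between groups was wide, HI 1 lying 6.46-fold above the highest control, and the log2 fold change was 4.01 ± 0.41 (SE).

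Cd68, a heavily glycosylated protein of phagocyte lysosomes, stood at 2.47, 7.07 and 12 CPM in HI 1, 2 and 3, against 0.757, 1.99 and 1.05 CPM in controls 1, 2 and 3. HI 1 was only 1.24-fold above control 2, on 37 against 27 reads, so the groups nearly touched. The log2 fold change was 2.50 ± 0.65 (SE).

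Cd63, a tetraspanin of late endosomes and exosomes, stood at 128, 265 and 362 CPM in HI 1, 2 and 3, against 51.9, 61.8 and 63.4 CPM in controls 1, 2 and 3. Controls were tight, spanning 1.22-fold, and the log2 fold change was 2.09 ± 0.36 (SE).

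HI 1 was the lowest HI library in all 9 compared genes, and HI 3 was the highest in 7 of them, HI 2 being highest in Itgax and Msr1. Of all tested genes with every HI library above every control, 55.5% likewise had HI 1 lowest and HI 3 highest. On the scale of log2(CPM + 0.5) minus the control mean, the median of the 9 genes lay between -0.23 and 0.16 in the controls. In HI 1, 2 and 3 it was 1.52, 3.14 and 3.41. The medians of HI 1 and HI 3 are the values of Itgax. Its controls averaged 0.0495 CPM, so the added 0.5 CPM compresses its rise on this scale. Tyrobp and Cd63 had the most similar profiles, with a root mean square difference of 0.176 log2 units over the 6 libraries, and Axl and Lgals3 the least similar, at 2.59. This difference also counts the size of the rise, so genes of unlike fold change lie far apart by it. Without Y-linked reads (HI 1 against controls 1 and 2) the median difference of the 9 genes was 1.55, the value of Itgax. With Y-linked reads (HI 2 and 3 against control 3) it was 3.02, each comparison having a lone library on 1 side. Differences of single genes ran from 0.75 (Cd68) to 3.80 (Lgals3) without such reads and from 1.33 (Axl) to 6.05 (Lgals3) with them.

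**Figure D2:**
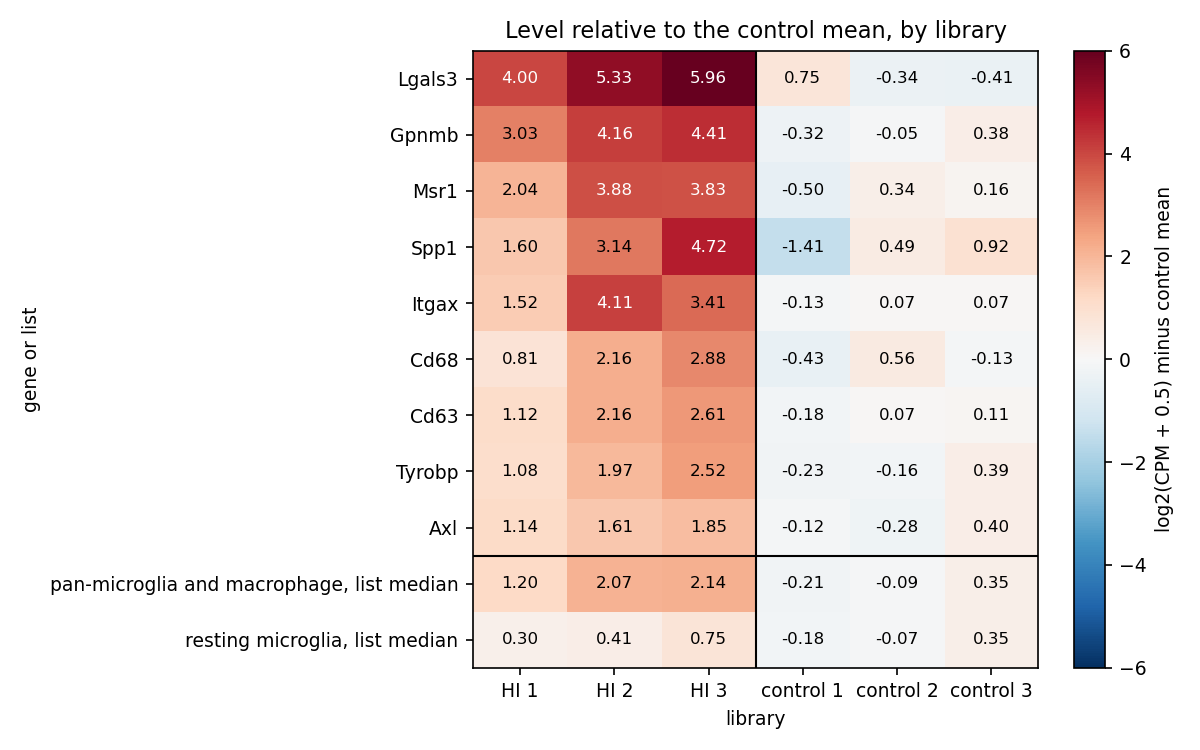
Difference of log2(CPM + 0.5) from the control mean (colour and printed value) for 9 genes and the medians of both microglia lists (rows) in 3 HI and 3 control libraries (columns). Lgals3 reaches 5.96 in HI 3, while the median of the resting microglia list stays between 0.30 and 0.75 in HI. The added 0.5 CPM compresses the values of Itgax, whose controls lay far below it.

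The general increase of microglia and macrophage markers was set beside these genes. Of 14 pan-microglia and macrophage genes 13 rose and 0 fell in HI, with a median log2 fold change of 2.01. C1qc, a chain of the complement protein C1q, averaged 54.0 ± 16.8 CPM in HI and 7.25 ± 1.17 CPM in controls (SD, n = 3 each). Csf1r, the growth factor receptor that microglia need to survive, averaged 119 ± 30.0 CPM in HI and 50.5 ± 11.4 CPM in controls (edgeR adjusted p = 0.0282). Of 13 resting microglia genes 2 rose and 0 fell, and their median log2 fold change was 0.47. The chemokine receptor gene Cx3cr1 was among those that rose (log2 fold change 1.22 ± 0.22 SE). The purinergic receptor P2ry12 averaged 12.1 ± 2.41 CPM in HI and 13.3 ± 3.07 CPM in controls and did not pass (edgeR adjusted p = 0.714), nor did Tmem119 (edgeR adjusted p = 0.26). Leaving out control 1, control 2 or HI 2 brought the edgeR calls of higher genes to 0 across the whole table, these lists included. With HI 3 left out 6 pan-microglia and macrophage genes and 0 resting microglia genes were called. At an unadjusted p below 0.05, 13 of the 14 pan-microglia and macrophage genes were higher without control 1, without control 2 and likewise without HI 2.

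Expressed relative to the median of the pan-microglia and macrophage list in the same library, Gpnmb lay 1.83, 2.09 and 2.27 log2 units above it in HI 1, 2 and 3 and between -0.11 and 0.04 in controls. Lgals3 lay 2.81, 3.26 and 3.81 units above it in HI and between -0.76 and 0.96 in controls. For Msr1 (0.84 to 1.80 in HI, at most 0.43 in controls) and Itgax (0.32 to 2.04 in HI, at most 0.16 in controls) the groups were likewise apart. The added 0.5 CPM compresses the rise of Msr1 and Itgax, whose controls averaged 0.446 and 0.0495 CPM. To a lesser degree it compresses that of Cd68 and Lgals3, whose controls averaged 1.26 and 1.18 CPM. In the main fit the log2 fold change of Cd68 was 2.50 ± 0.65 (SE), beside a list median of 2.01. Spp1 overlapped, with 0.41 to 2.58 in HI and -1.20 to 0.59 in controls. Tyrobp (-0.12 to 0.37 in HI), Cd63 (-0.08 to 0.47), Cd68 (-0.38 to 0.74) and Axl (-0.46 to -0.06) stayed near the list and overlapped with the controls. Relative to the median of the resting microglia list, every HI library stood above every control in 8 of the 9 genes, Cd68 being the exception. These differences share the contrast that chose the genes and were not tested.

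**Figure D3:**
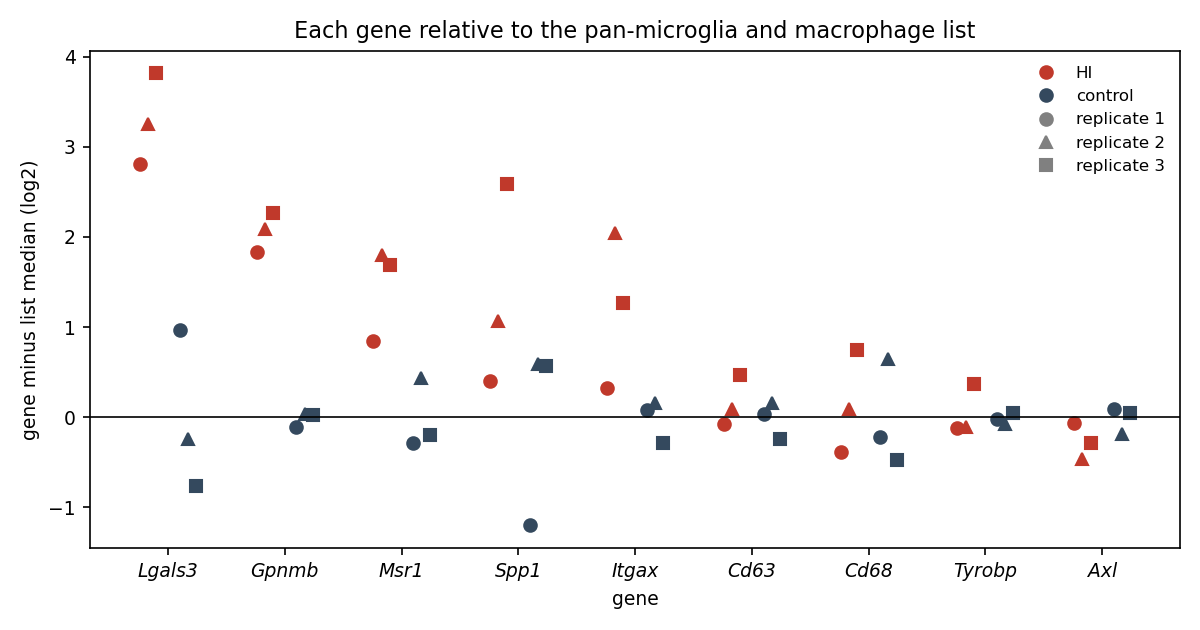
Each gene's log2 level minus the median of the pan-microglia and macrophage list in the same library, both relative to their control means (vertical axis, log2 units), for 3 HI (red) and 3 control (dark) libraries. Gpnmb, Lgals3, Msr1 and Itgax have all HI libraries above all controls, whereas Tyrobp, Cd63, Cd68 and Axl lie around 0 in both groups. The added 0.5 CPM compresses the rise of Itgax and Msr1, and to a lesser degree that of Cd68 and Lgals3.

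Genes that work with these proteins were then counted in the fit over all genes. In the list of other injury-associated phagocyte genes 13 of 27 tested genes rose and 0 fell, with a median log2 fold change of 1.30, against 6.83% of all tested genes called higher. The lysosomal protease gene Ctsz averaged 67.4 ± 30.4 CPM in HI and 8.85 ± 2.1 CPM in controls, the heme-degrading enzyme Hmox1 26.0 ± 9.77 CPM in HI and 4.94 ± 0.98 CPM in controls, and Cybb, a subunit of the phagocyte NADPH oxidase, 3.01 ± 1.48 CPM in HI and 0.300 ± 0.132 CPM in controls (SD, n = 3 each, edgeR adjusted p = 0.0215, 0.0215 and 0.0243). Apoe, the main lipid carrier of the brain, did not pass at 1689 ± 360 CPM in HI and 855 ± 236 CPM in controls (edgeR adjusted p = 0.0538). The fatty acid handling genes Lpl and Fabp5, of the same state in mice, also missed the threshold (log2 fold change -0.09 ± 0.24 and -0.35 ± 0.23, SE), as did the tetraspanin gene Cd9 at 104 ± 48.7 CPM in HI and 42.2 ± 7.03 CPM in controls (edgeR adjusted p = 0.0535). Apoe, Lpl, Fabp5, Lyz2 and Clec7a were named after their values were seen. Of the 13, Lyz2 shares reads with other genes and is uncertain, and Clec7a and Cybb had fewer than 10 reads in each control. With HI 1 left out the count of 13 became 20, with control 3 left out 7, with HI 3 left out 3, and with control 1, control 2 or HI 2 left out 0, and at an unadjusted p below 0.05 it was 21 with all libraries and 20 or 21 with control 1, control 2 or HI 2 removed.

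Most signalling partners of Tyrobp that could be tested rose. Of 19 tested genes of TREM2 and TYROBP signalling 14 rose and 0 fell, with a median log2 fold change of 1.47. Trem2 is counted in this list and in the one before. Other genes also recur across lists, among them Ctsz, Cd44, Itgal, Itgam and Mrc1, so the counts of the lists are not separate. Trem2 itself averaged 10.7 ± 3.11 CPM in HI and 4.46 ± 1.14 CPM in controls (edgeR adjusted p = 0.0442), and Syk, the kinase that TYROBP recruits, 15.3 ± 3.42 CPM in HI and 7.74 ± 1.06 CPM in controls (edgeR adjusted p = 0.0392). The list's smallest p-values belonged to the adaptors Lat2 and Lcp2 and to Ptpn6, a phosphatase that restrains the same receptors, with log2 fold changes of 2.47 ± 0.31, 1.96 ± 0.30 and 2.26 ± 0.32 (SE). Hcst, which encodes the related adaptor DAP10, had too few reads to test. Of the list, 4 genes were called without HI 3, 12 without control 3, 7 with limma-voom, 10 with Y-linked reads and 0 with the choroid plexus score as a covariate. Trem2 was called in 9 and Syk in 8 of 16 alternatives.

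Partners of Itgax and receptors of osteopontin differed among themselves. Itgb2 averaged 21.2 ± 8.02 CPM in HI and 2.91 ± 0.86 CPM in controls (edgeR adjusted p = 0.0215), and its other alpha subunits Itgal and Itgam rose with log2 fold changes of 2.97 ± 0.35 and 1.97 ± 0.34 (SE). Cd44, a receptor of osteopontin, averaged 48.7 ± 15.6 CPM in HI and 13.6 ± 3.87 CPM in controls (edgeR adjusted p = 0.0247). Itgav, the alpha subunit of the classical osteopontin integrins, stood at 69.4 ± 5.83 CPM in HI and 60.2 ± 26.2 CPM in controls and did not pass (edgeR adjusted p = 0.633). Of 12 tested genes of this list 6 rose and 0 fell, with a median log2 fold change of 0.84, and without HI 3 only 2 rose.

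Relatives of Axl did not move as one family. Mertk, its sister receptor on microglia, averaged 15.8 ± 2.49 CPM in HI and 5.93 ± 1.75 CPM in controls (edgeR adjusted p = 0.027), and the bridging ligand Pros1 24.8 ± 9.12 CPM in HI and 8.52 ± 0.85 CPM in controls (edgeR adjusted p = 0.0274). Tyro3, the receptor of neurons, stood at 72.3 ± 11.9 CPM in HI and 107 ± 16.2 CPM in controls and did not pass (edgeR adjusted p = 0.064). Gas6, the ligand that binds Axl most tightly, stood at 210 ± 104 CPM in HI and 126 ± 14.5 CPM in controls and did not pass (edgeR adjusted p = 0.184). Of 9 tested genes of this list 3 rose and 0 fell (median log2 fold change 0.74), the third being Dock1, an engulfment factor whose reads are shared with other genes. With HI 3 left out 1 rose, and with control 3 left out 2.

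Among scavenger receptors 4 of 13 tested genes rose and 1 fell, with a median log2 fold change of 1.51. Olr1, a receptor for oxidised lipoproteins with at most 7 reads in a control, averaged 5.06 ± 1.61 CPM in HI and 0.398 ± 0.114 CPM in controls (edgeR adjusted p = 0.0197). Cxcl16, a chemokine that doubles as a scavenger receptor, and the lysosomal receptor Scarb2 rose with log2 fold changes of 2.77 ± 0.40 and 0.48 ± 0.09 (SE), and the mannose receptor Mrc1 with 2.01 ± 0.46. Scarb1, a receptor for high-density lipoprotein named after its value was seen, fell by 0.44 ± 0.09 on the log2 scale (edgeR adjusted p = 0.0318). Leaving out HI 3 or control 3 left 2 scavenger receptors called higher. The fall of Scarb1 was not called without HI 2, HI 3, control 1 or control 2, nor with total-count scaling, the replicate block, or Y-linked reads or the choroid plexus score as a covariate.

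Relatives of Lgals3, Cst7, Cd63 and Cd68 were counted likewise. Of 4 tested galectin genes (median log2 fold change 1.64) 3 rose and 0 fell, Lgals3bp (log2 fold change 2.62 ± 0.59 SE), Lgals9 (1.74 ± 0.35) and Lgals8 (0.55 ± 0.11), while Lgals1 stood at 10.8 ± 5.84 CPM in HI and 3.73 ± 1.42 CPM in controls and did not pass (edgeR adjusted p = 0.0764). Of 13 cystatins and cysteine proteases 6 rose and 0 fell (median 0.82). Ctsc, whose protease is a known target of cystatin F, averaged 39.0 ± 23.0 CPM in HI and 6.77 ± 3.30 CPM in controls (edgeR adjusted p = 0.038), whereas the abundant inhibitor gene Cst3 did not pass (edgeR adjusted p = 0.132). Of 13 tetraspanins and LAMP genes 4 rose and 0 fell (median 1.17), Cd37, Cd53, Cd81 and Lamp2. Lamp2, a lysosomal relative of Cd68, averaged 170 ± 47.8 CPM in HI and 74.4 ± 3.09 CPM in controls (edgeR adjusted p = 0.0243), and Lamp1 365 ± 63.5 CPM in HI and 296 ± 11.8 CPM in controls without passing (edgeR adjusted p = 0.176). With HI 3 left out 0 galectins, 2 cystatins and proteases and 2 tetraspanins and LAMP genes were called higher, with control 3 left out 1, 4 and 5, and with HI 1 left out 4, 8 and 8.

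MITF and its relatives TFEB, TFE3 and TFEC can drive Gpnmb. Mitf stood at 22.1 ± 11.4 CPM in HI and 7.30 ± 2.46 CPM in controls and did not pass (edgeR adjusted p = 0.0706). Tfeb and Tfe3 did not pass (edgeR adjusted p = 0.0975 and 0.365), and Tfec, a low-count member with at most 7 reads in a control, rose (log2 fold change 2.08 ± 0.53 SE, edgeR adjusted p = 0.0482). Pmel, the closest relative of Gpnmb, stood at 11.8 ± 4.69 CPM in HI and 11.4 ± 2.91 CPM in controls (edgeR adjusted p = 0.924). Tfec was the 1 gene of 8 tested in that list that rose, 0 fell, and the median was 0.13. The call of Tfec held in only 5 of the 15 alternatives that tested it, and was lost without HI 3 and without control 3, among others. Without HI 1, 3 genes of the list were called.

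**Figure D4:**
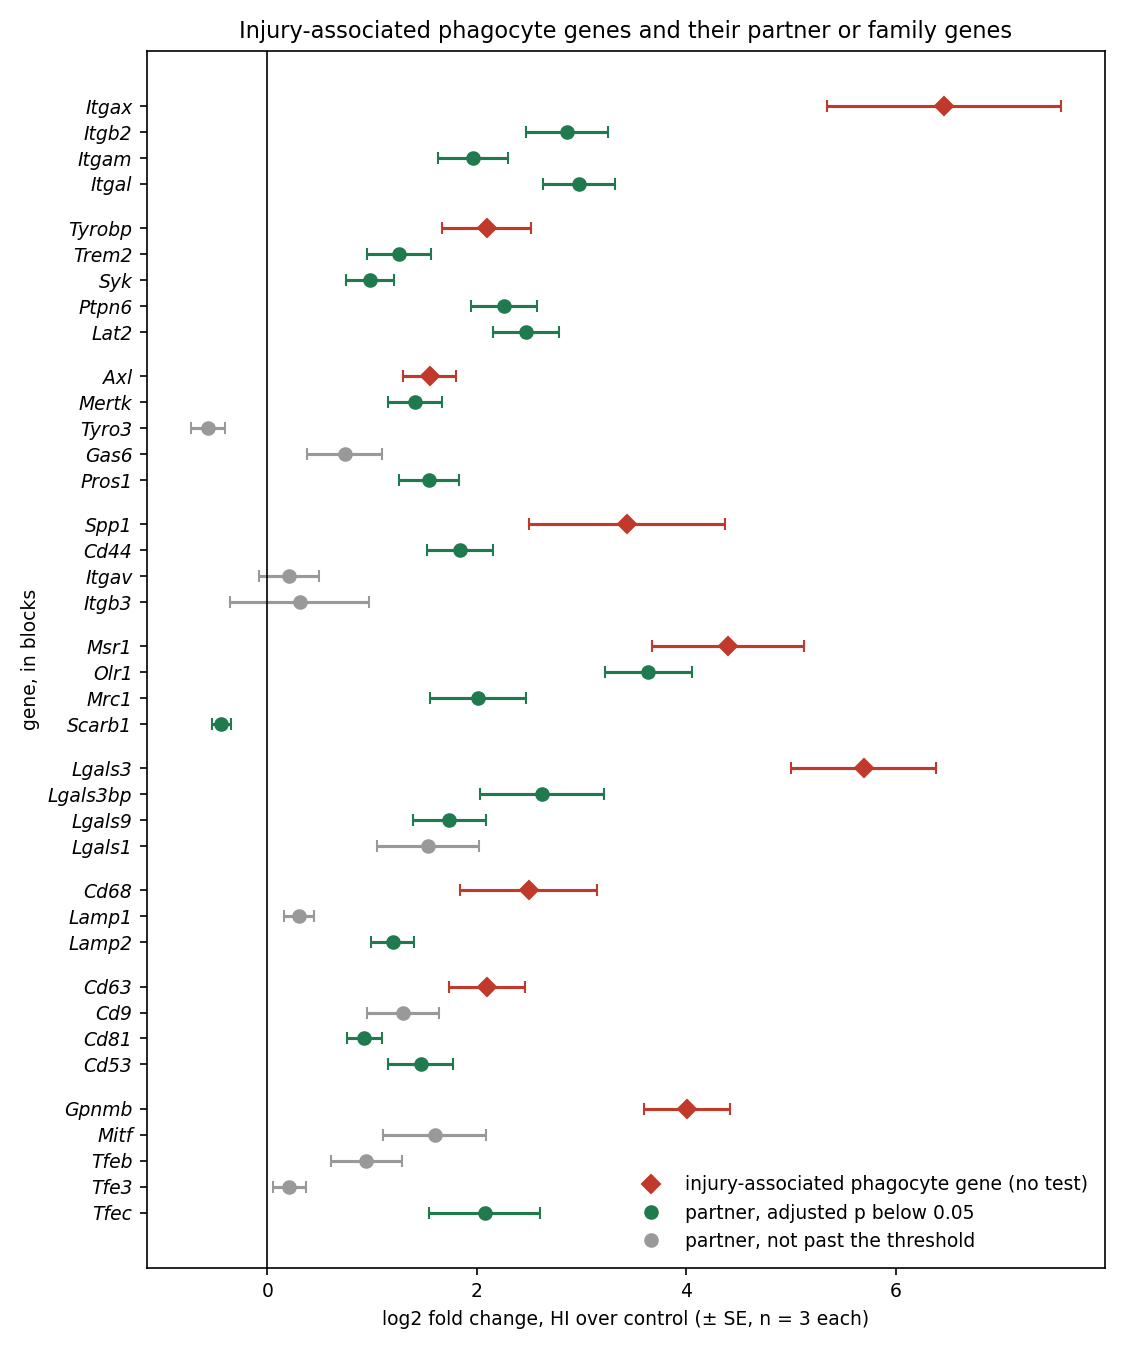
Log2 fold change of HI over control with its SE (horizontal axis, n = 3 each) for 9 injury-associated phagocyte genes (diamonds, no test) and partner or family genes (circles, green where the edgeR adjusted p is below 0.05). Tyro3 at -0.57 lies left of 0, while Axl and Mertk of the same receptor family lie at 1.55 and 1.41.

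The genes with the most similar pattern were searched among 12338 others with a mean of at least 5 CPM, by the root mean square difference of log2(CPM + 0.5), relative to the control mean, over the 6 libraries. A close gene by this measure is thus one with a rise of similar size. Closest to the median of the 9 genes were Ehd2, a membrane-shaping protein (0.140 log2 units), Cyr61, a matrix protein (0.145), and Fcgr3a, an immunoglobulin receptor of myeloid cells (0.158). Axl was closest to Plcg2, a phospholipase downstream of TREM2 (0.081), Phlda3 (0.087) and Cd33 (0.089). Tyrobp was closest to Dnase2, which digests DNA in lysosomes (0.109), and Cd63 to Myl9, a myosin light chain of smooth muscle (0.103), and Dnase2 (0.108). Msr1 was closest to Timp1, a protease inhibitor (0.159), whereas the nearest genes to Spp1 and Lgals3 still differed by 0.677 (Psmb8) and 0.629 (Exoc7, which shares reads).

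Markers of other cells moved with the groups. Border macrophage markers rose in 4 of 7 tested genes and fell in 0, but 3 of the 4 (Folr2, Siglec1 and Clec10a) had fewer than 10 reads in each control and entered through their HI reads. Their summed level over 9 genes was 25.9 to 73.6 CPM in HI and 10.3 to 21.1 CPM in controls. Of 16 blood leukocyte genes 4 could be tested and all 4 rose, Itgal, Csf3r, Cd8a and Plac8 (which shares reads, and like Cd8a had fewer than 10 reads in each control), with a summed level of 29.5 to 61.3 CPM in HI and 7.49 to 7.85 CPM in controls. Cd3d, Cd3e and Cd3g, which define T cells, had at most 1 read in any library, and the neutrophil gene S100a8 at most 12 reads in HI and 0 in controls. Reactive astrocyte genes rose in 9 of 11 tested genes, led by Gfap, with a sum of 1461 to 3974 CPM in HI and 238 to 277 CPM in controls. Leaving out HI 3 left 1 border macrophage, 1 blood leukocyte and 5 reactive astrocyte genes called higher, and leaving out control 3 left 1, 3 and 7. Neuron markers rose in 0 and fell in 4 of 12 tested genes (median log2 fold change -1.09), with a sum of 2403 to 4251 CPM in HI and 6054 to 6805 CPM in controls. Oligodendrocyte markers rose in 0 and fell in 2 of 10 tested genes, with a sum of 555 to 692 CPM in HI and 768 to 1151 CPM in controls. Each of these 6 falls was lost without HI 2, control 1 or control 2. The part of these cells in the levels of the 10 genes was not tested. In the choroid plexus list 0 of 9 tested genes passed, and its transthyretin gene Ttr had a log2 fold change of 3.45 ± 2.61 (SE, edgeR adjusted p = 0.375). In HI 1, which held fewer choroid plexus reads than control 2, each of the 9 compared genes was above control 2. For Cd68 this rested on 37 against 27 reads. It compares 1 library with 1, in genes chosen on this contrast, and the part of choroid plexus in their levels was not tested. With the choroid plexus score as a covariate the median log2 fold change of the 9 genes was 1.89, the value of Spp1. The count of 13 other injury-associated genes was then 0 by edgeR, with 11 at an unadjusted p below 0.05.

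**Figure D5:**
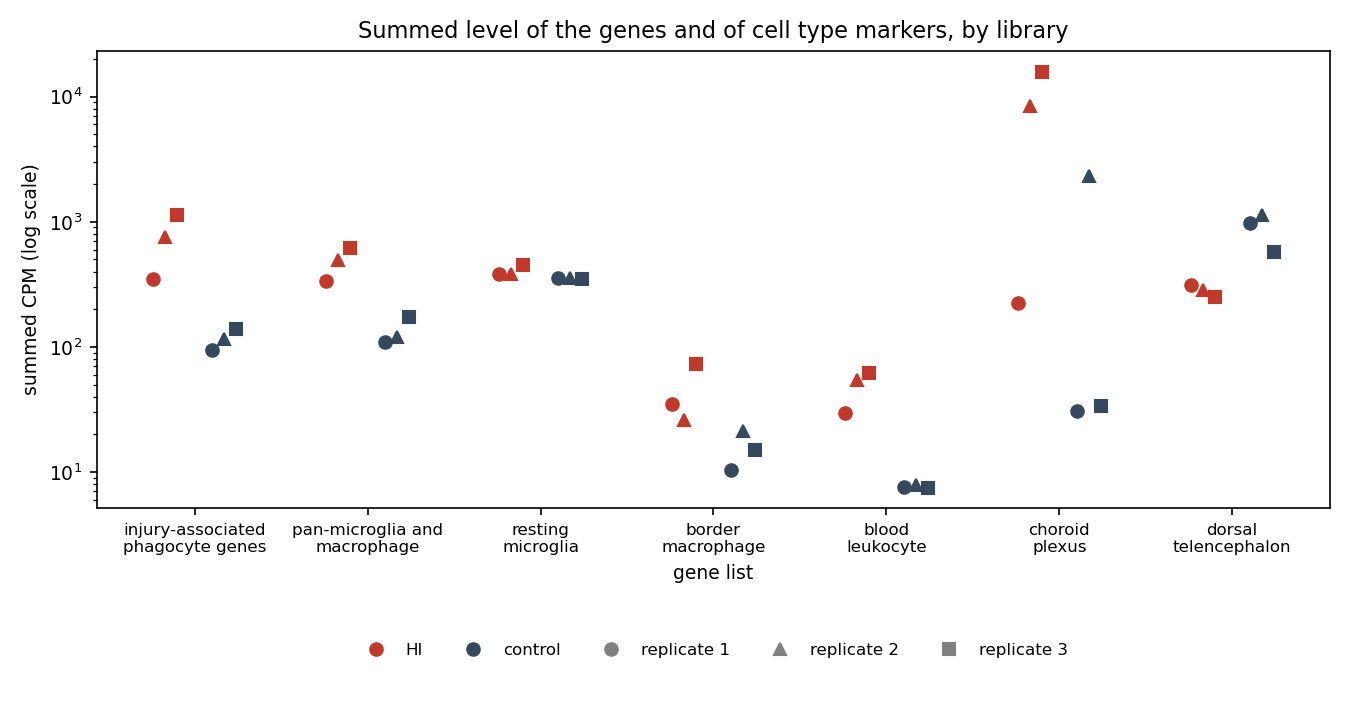
Summed CPM (vertical axis, log scale) of the 10 injury-associated phagocyte genes and of 6 marker lists in each of the 3 HI (red) and 3 control (dark) libraries. Choroid plexus sums range from 226 to 15870 CPM within HI. Resting microglia sums lie at 379.5 to 448.5 CPM in HI and at 351.9 to 354.8 CPM in controls, a small difference without overlap.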

How the data were processed

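Bulk RNA-seq of rat brain was analysed in 6 libraries. The build Rnor_6.0 and the tools StringTie 2.2.1, SAMtools 1.10 and HISAT2 2.1.0 are named per the submitters' processing notes. How reads were counted, against which annotation and whether by strand, is not given in the sources used here. Values as deposited are estimated counts per gene, unscaled, of which 8.87% of entries are not whole (tolerance 1e-09). The 10 genes described had whole counts throughout. All 6 columns were matched to samples by name, and that of control 1 is spelled with a letter missing.

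Counts were rounded, filtered with filterByExpr (minimum count 10), scaled by TMM and tested with the quasi-likelihood test of edgeR 4.0.16 (R 4.3.3, limma 3.58.1, DESeq2 1.42.0), two-sided, group as the only term, with Benjamini-Hochberg adjustment across 14959 genes and a threshold of 0.05. Alternatives were scaling by DESeq2 size factors, upper quartiles or total counts, DESeq2 and limma-voom, other filters, a replicate block, covariates for Y-linked reads or a choroid plexus score, and leaving out each library. The procedure was checked on simulated counts, drawn around the control means with the same dispersion for every gene. That check does not cover differences in tissue markers between libraries such as those seen here. The SE of a fold change is derived from its F statistic. No libraries were duplicates (chi-square per degree of freedom 13.4 to 85.4 within groups). No pairing by replicate number is stated in the sources used here, and the main fit used none.

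The genes, the lists and the named-gene rule were chosen with earlier results of these data known. Named are the 10 genes, 28 partners set whatever their result, from each list up to 3 genes with the smallest p (not all printed), the genes nearest in pattern, and others named after their values were seen (Apoe, Lpl, Fabp5, Lyz2, Clec7a, Scarb1, Cd37, Plac8, S100a8 and the Cd3 genes). Promoter sequences are from RefSeq (GRCr8), and no coordinate of the deposited build is used. Genes of the lists that have no row were not analysed here, and 2 genes that the rule names are not reported here. Intervals and floors cover counting error only, since amplified reads without molecular identifiers are not independent molecules.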

Additional observations from a re-analysis of the deposited data

How the results depend on the processing

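In all 16 alternatives each of the 9 compared genes stayed higher in HI. Their median log2 fold change, 3.43, was 1.885 with the choroid plexus score as a covariate and ran from 2.320 to 3.892 when a library was left out. In the main fit and in each alternative this median was the value of Spp1, the gene with the widest spread in HI. Single genes ran from 1.55 to 6.461 in the main fit and from 1.113 to 4.686 with the choroid plexus score. Scaling by total counts shifted the median of all genes by 0.193 on the log2 scale. The number of genes called higher, 1021 (with 1053 lower), was 1446 (804 lower) with upper-quartile scaling, 2161 (730 lower) with total counts, 2076 (2124 lower) with DESeq2, 552 (819 lower) with limma-voom, 334 (440 lower) with Y-linked reads and 16 (21 lower) with the choroid plexus score as a covariate, and 0 to 2097 when a library was left out. The 13 other injury-associated phagocyte genes called higher became 7 with limma-voom, 5 with Y-linked reads and 0 with the choroid plexus score as covariates, and 0 to 20 when a library was left out. The causes were not tested. With the replicate number as a block 771 genes were called higher, the median of the 9 genes was 3.243 and 12 of the other injury-associated genes were called. Deviations of same-numbered libraries correlated by 0.239, 0.073 and -0.146, and those of other pairs by -0.34 to 0.317. With 3 libraries per group these values cannot show whether same-numbered libraries were paired. Signs turned only in genes that had not passed with all libraries. The log2 fold change of P2ry12, -0.13, was 0.058 with total counts and 0.103 with the choroid plexus score, and -0.254 to 0.040 when a library was left out. That of Gas6 was -0.007 with the choroid plexus score. Leaving out a library gave -0.014 to 0.585 for Itgav and -0.306 to 0.280 for Pmel. Depth limits Cst7, and the fold of Itgax rests on 2 control reads.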
